A study of Mus musculus with 19 samples.

Results

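The genes described here encode pumps that spend ATP to move sodium and calcium across membranes. They are 7 listed genes, Atp1b1 and Atp1b2 of the sodium pump, Atp2a2 of the endoplasmic reticulum calcium pump and Atp2b1, Atp2b2, Atp2b3 and Atp2b4 of the plasma membrane calcium pump. They were chosen by name as main users of ATP in dendrites, with earlier results of these data known. All 7 were measured, as 7 of 18193 genes and 22 of 45037 probe sets. The series measured RNA of dendrites cut from cultured mouse hippocampal neurons, to set the distance between mouse strains beside that between mouse and rat, whose arrays are not analysed here. The Balb/c group had 5 arrays, of which 2 held pools of 100 dendrites, 1 a pool of 200 and 2 pools of 400. The C57BL/6 group had 14, with 4, 5 and 5 arrays at these pool sizes. Both groups were untreated neurons of E18 embryos, labelled pyramidal and kept 14 days in culture, with no allele or agent named for either strain. Each array held 1 pool taken across several cells, and each pool went through 3 rounds of RNA amplification. The study notes that axons could not be told from dendrites under the microscope, so a pool can hold some axonal RNA. It adds that RNA of the soma may be present in the pools as well. The array's probes follow C57BL/6 sequence, and Balb/c variants under them were not analysed here. The sources call the pools biological replicates and name no culture for any of them, so that the p-values cover only how pools vary, which may be technical. Arrays are named by strain, pool size and replicate, so that C57BL/6 200-1 is replicate 1 of the pools of 200 dendrites.

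The sodium pump carries sodium out of the cell and potassium into it and restores both gradients after synaptic currents and spikes. Its beta subunit, encoded by Atp1b1 and Atp1b2, is needed for the pump to mature and reach the membrane. Calcium that enters a dendrite is cleared by pumps of 2 places. The SERCA pumps, of which Atp2a2 is the widespread form, fill the endoplasmic reticulum, and the plasma membrane calcium pumps, encoded by the 4 Atp2b genes and activated by calmodulin, move calcium out of the cell at high affinity.

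Values are log2 expression. A gene's value is the median of its probe sets, and a probe set is a group of short probes read together. A difference of 1 on this scale is a factor of 2, and a value of 1 gene is not set against that of another, since probes differ in brightness. All differences are Balb/c minus C57BL/6, from limma over all genes or all probe sets, with Benjamini-Hochberg adjusted p and a threshold of 0.05. Over all genes the median difference was 0.22, and over all probe sets 0.25, so differences are also given relative to that median.

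Several properties of the arrays differed between the strains, and their part in the pump differences was not tested. Array medians over genes ran between 6.69 and 6.98. C57BL/6 200-1, C57BL/6 400-1 and Balb/c 200-1 lay between the strains, with mean correlations of 0.781, 0.722 and 0.678 to the Balb/c arrays and 0.757, 0.779 and 0.782 to the C57BL/6 arrays. For Actb, the signal of the 3' control probe set minus that of the 5' one, which grows as amplified RNA gets shorter, was 0.87 ± 1.31 in Balb/c and 3.87 ± 1.25 in C57BL/6 (SD, n = 5 and 14, exact permutation p = 0.00138, two-sided), while that of Gapdh was 3.14 ± 1.42 in Balb/c and 3.27 ± 0.62 in C57BL/6 (exact permutation p = 0.775). All 5 Balb/c columns and 4 of the C57BL/6 columns (100-1, 100-2, 200-1, 400-1) carried values with up to 14 decimals, and the other 10 C57BL/6 columns up to 9. Pump genes and probe sets that passed the test are also given with this number format as a block. The estimate then rests on the arrays of the long format, 5 of Balb/c against 4 of C57BL/6. Counts of cell type markers stand beside 11.4% of all genes lower in Balb/c and 21.1% higher. The list mean of neuron and dendrite markers was 7.69 to 8.71 in Balb/c and 8.10 to 8.51 in C57BL/6, with 1 of 11 lower (Map2) and 1 higher (Camk2a). Of the other cell types, astrocyte markers had 1 of 10 lower, with list means of 6.30 to 7.32 in Balb/c and 6.31 to 7.02 in C57BL/6. Microglia markers had 3 of 9 higher (6.80 to 7.53 in Balb/c, 6.10 to 7.11 in C57BL/6) and oligodendrocyte lineage markers 3 of 9 higher (6.48 to 6.96 in Balb/c, 6.24 to 6.67 in C57BL/6). Endothelial markers had 1 of 5 higher (6.00 to 8.24 in Balb/c, 6.45 to 7.69 in C57BL/6) and GABAergic interneuron markers 2 of 6 lower (7.23 to 7.99 in Balb/c, 7.63 to 8.81 in C57BL/6). On an array no marker is at 0, and signal over background was not analysed here.

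At the level of genes, Atp1b1, Atp2b1 and Atp2b3 were lower in Balb/c, Atp1b2 and Atp2b4 were higher, and Atp2a2 and Atp2b2 did not pass the test. This is 3 of 7 lower, where 11.4% of all genes were lower, and 2 of 7 higher, where 21.1% of all genes were higher. After quantile normalisation 5 were lower and 2 higher, Atp2a2 and Atp2b2 among the lower, and over all genes 2522 were lower and 2765 higher. The median of the 7 differences was −0.64, or −0.85 relative to the median gene. With the number format as a block, 0 of the 7 passed (1.92% of all genes did), although each kept its direction. A pool that holds less of a transcript in each dendrite cannot be told apart from one with fewer dendrites that carry it.

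**Figure D1:**
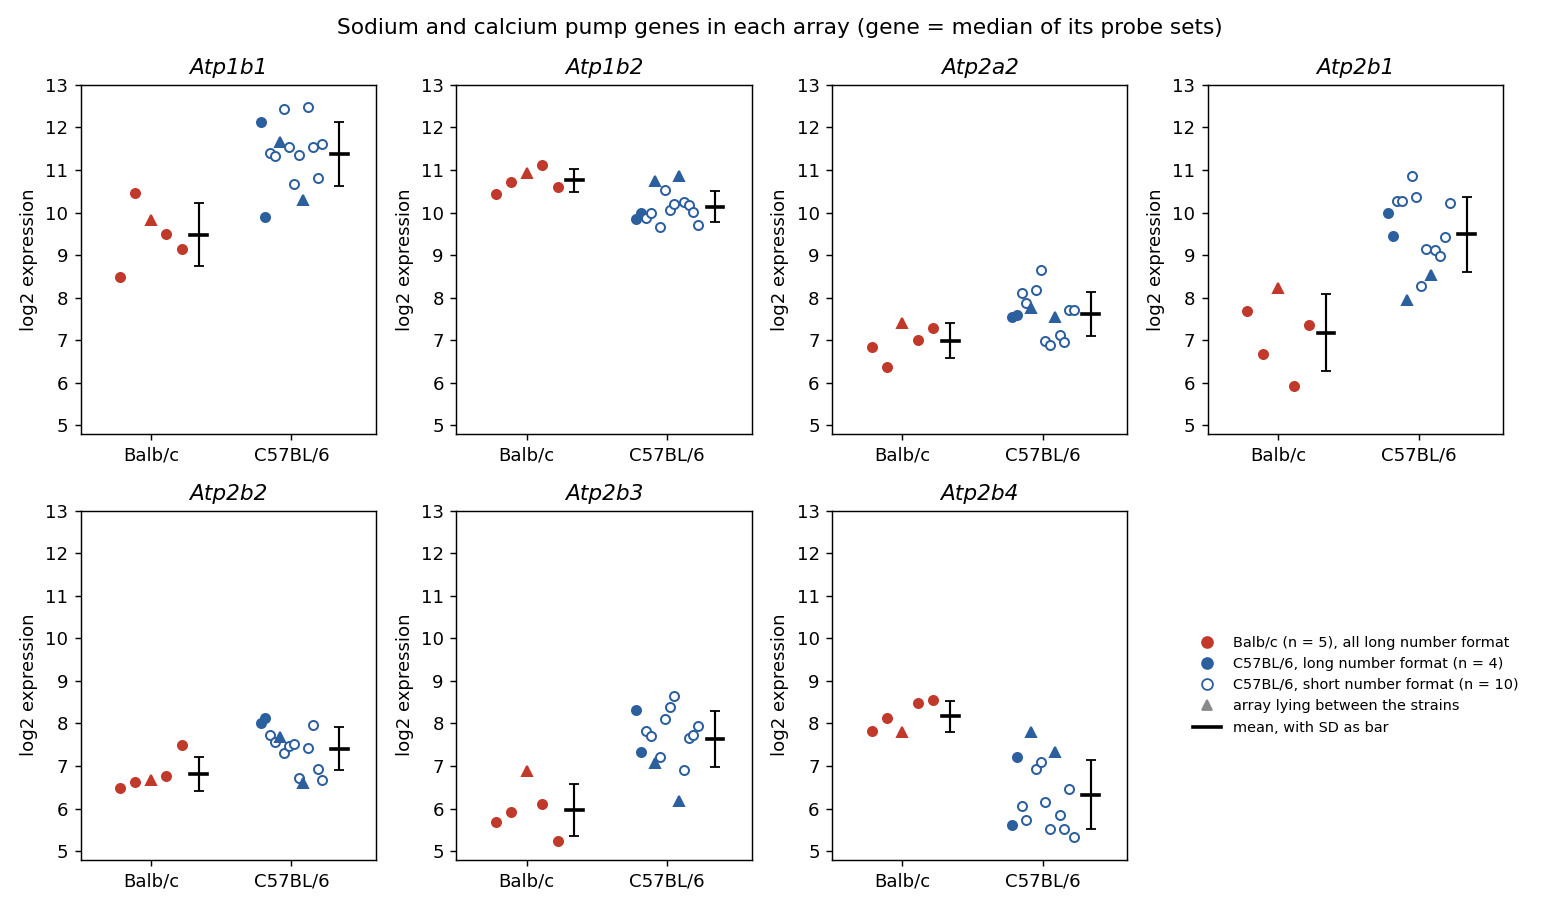
Log2 expression of the 7 pump genes in each array, with Balb/c (red, n = 5) left of C57BL/6 (blue, n = 14). Filled points are arrays of the long number format, open points of the short one, triangles the 3 arrays between the strains, and black bars the mean and SD. Atp1b1, Atp2b1 and Atp2b3 lie lower in Balb/c and Atp2b4 higher, and in each of the 7 panels some arrays of the strains overlap.

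Stretches before transcript starts are printed for the sodium pump subunit and the plasma membrane pumps with the largest differences in each direction, as sequence context for these genes. Of the 7 genes, 4 matched the RefSeq promoter table (assembly GRCm38.p6), and each stretch is the 100 bases before a RefSeq transcript start, read 5′ to 3′ on the gene's strand, with every CG in capitals. The Atp1b1 stretch is chr1:164458356-164458455 (minus strand), that of Atp2b1 chr10:98914542-98914641 (plus strand, the first of 2 starts in the table) and that of Atp2b4 chr1:133753748-133753847 (minus strand).
Atp1b1: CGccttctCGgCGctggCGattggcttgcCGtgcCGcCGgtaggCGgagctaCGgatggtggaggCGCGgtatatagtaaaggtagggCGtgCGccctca
Atp2b1: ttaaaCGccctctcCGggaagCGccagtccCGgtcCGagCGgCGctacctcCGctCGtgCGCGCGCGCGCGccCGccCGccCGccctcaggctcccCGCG
Atp2b4: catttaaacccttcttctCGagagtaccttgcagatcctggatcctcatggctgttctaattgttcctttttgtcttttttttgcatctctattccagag
CG reads the same on both strands. It occurred 13 times in the Atp1b1 stretch, 20 times in that of Atp2b1 and 1 time in that of Atp2b4. Of 32851 stretches of the same length in the table, 18.6% held 10 or more and 38% held 1 or fewer. The Atp2b1 stretch of the other start held 18, and the 3 starts of Atp2b2 held 11, 2 and 5. These counts describe the sequence only, and whether each stretch acts as a promoter was not tested.

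Atp1b1, the main beta subunit of the sodium pump in neurons, was at 8.49 and 10.46 in the Balb/c pools of 100 dendrites, 9.82 in the pool of 200 and 9.50 and 9.14 in the pools of 400. In C57BL/6 its lowest value was 9.90, the median 11.48 and the highest 12.48. Each Balb/c array was under the mean of C57BL/6, and 2 of the 14 C57BL/6 arrays, 100-2 at 9.90 and 400-1 at 10.30, lay below the highest Balb/c array. Balb/c averaged 9.48 ± 0.74 and C57BL/6 11.38 ± 0.75 (SD, n = 5 and 14), a difference of −1.89 ± 0.37 (SE), or 3.71-fold lower in Balb/c (limma adjusted p = 0.000882, exact permutation p = 0.000688). Relative to the median gene the difference was −2.11. With the number format as a block it was −1.52 ± 0.46 (adjusted p = 0.0773), and within the long format columns alone the adjusted p was 0.329.

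The 5 probe sets of Atp1b1 did not move together. Probe set 1439036_a_at was at 3.42 and 2.92 in the Balb/c pools of 100, 7.98 in the pool of 200 and 2.34 and 7.60 in the pools of 400, while C57BL/6 ran from 9.33 through a median of 11.28 to 12.48. No Balb/c array reached the lowest C57BL/6 array. Strains that did not overlap, in either direction, were found for 1.2% of all probe sets. Its difference was −6.27 ± 0.72 (SE), the largest of the 22 pump probe sets, with a limma adjusted p of 2.74e-05, and it passed with the number format as a block as well (−5.49 ± 0.91, adjusted p = 0.011). The probe set lay below the median gene of its array in 3 of the 5 Balb/c and 0 of the 14 C57BL/6 arrays. The lowest value of any probe set was 2.12, so the size of this difference can be bounded by background in Balb/c.

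Probe sets 1423890_x_at and 1451152_a_at were also lower, by −2.53 ± 0.51 (SE) and −1.87 ± 0.42 (adjusted p = 0.00124 and 0.00255, and 0.0549 and 0.0671 with the block). In both, Balb/c 200-1 stood high at 12.48 and 12.50, close to the C57BL/6 medians of 12.58 and 12.55, and the other 4 Balb/c arrays ran from 8.24 to 11.04. Probe set 1418453_a_at differed by −0.77 ± 0.50 and did not pass (adjusted p = 0.248). Its lowest value of all 19 arrays, 7.52, was in C57BL/6 100-2.

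The fifth probe set, 1455949_at, went the other way. It was at 8.36, 10.46, 8.49, 10.46 and 8.88 in the Balb/c arrays (100-1, 100-2, 200-1, 400-1 and 400-2) and had a lowest value of 6.28, a median of 6.80 and a highest value of 8.53 in C57BL/6. The difference was 2.23 ± 0.43 (SE, adjusted p = 0.000852), or 4.69-fold higher in Balb/c. With the block it was 1.81 ± 0.54 (adjusted p = 0.0729). It is the only Atp1b1 probe set whose name ends in _at alone. The endings _a_at and _x_at mark probe sets that read several transcripts of a gene or that share sequence with other transcripts. Without probe sets of such endings the gene's value rested on 1455949_at, and its difference was then 2.23 with an adjusted p of 0.000926. The direction given for Atp1b1 depends on which probe sets stand for the gene.

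Atp1b2, the beta subunit best known from glia and also present in neurons, was at 10.43 and 10.73 in the Balb/c pools of 100, 10.92 in the pool of 200 and 11.12 and 10.61 in the pools of 400. The C57BL/6 arrays ran from 9.66 through a median of 10.03 to 10.87. Each Balb/c array was over the mean of C57BL/6, but C57BL/6 400-1, 200-1 and 200-3, at 10.87, 10.74 and 10.53, lay among them. Balb/c averaged 10.76 ± 0.27 and C57BL/6 10.14 ± 0.36 (SD, n = 5 and 14), a difference of 0.63 ± 0.22 (SE, limma adjusted p = 0.0295, exact permutation p = 0.00482), or 0.41 relative to the median gene. This call was the least secure of the 5. Leaving out 1 Balb/c array gave an adjusted p of 0.0541 (100-2), 0.0554 (200-1) or 0.0969 (400-1), and it was 0.0692 with a variance per strain and 0.405 with the number format as a block (0.40 ± 0.27).

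Both probe sets of Atp1b2 were on the higher side, and 1 passed. Probe set 1422009_at was at 8.18, 8.70, 9.08, 9.89 and 8.67 in the Balb/c arrays and between 6.84 and 8.99 in C57BL/6, with a median of 8.07. The difference was 0.91 ± 0.33 (SE, adjusted p = 0.0394), and with the block 0.46 ± 0.41 (adjusted p = 0.527). Probe set 1435148_at was at 12.34 to 12.77 in Balb/c and 11.77 to 12.78 in C57BL/6, a difference of 0.34 ± 0.21 that did not pass (adjusted p = 0.219).

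Atp2a2, the SERCA pump of the endoplasmic reticulum, was at 6.84 and 6.37 in the Balb/c pools of 100, 7.41 in the pool of 200 and 7.01 and 7.30 in the pools of 400. C57BL/6 ran from 6.88 through a median of 7.65 to 8.66, and 4 of the 14 arrays lay below the highest Balb/c array. Balb/c averaged 6.98 ± 0.41 and C57BL/6 7.62 ± 0.51 (SD, n = 5 and 14). The difference of −0.64 ± 0.27 (SE, 95% interval −1.19 to −0.09) did not pass over all genes (limma adjusted p = 0.0699, exact permutation p = 0.0215 for this value alone). After quantile normalisation it was −0.80 and passed (adjusted p = 0.0299).

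Behind this gene median lay probe sets of unlike behaviour. Probe set 1416551_at was at 11.04 and 5.40 in the Balb/c pools of 100, 12.57 in the pool of 200 and 6.02 and 11.09 in the pools of 400. All 14 C57BL/6 arrays lay between 11.73 and 13.81, with a median of 12.78. Balb/c 100-2 and 400-1 thus lay far below all other arrays, and of the other 3 Balb/c arrays 200-1 lay within the C57BL/6 range and 100-1 and 400-2 under it. The difference was −3.56 ± 0.78 (SE, adjusted p = 0.00214), and without those 2 arrays, which also held the fewest distinct values of all 19, it was −1.22 ± 0.43 (adjusted p = 0.0654). With the number format as a block it was −3.10 ± 1.02 (adjusted p = 0.0934).

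The same 2 arrays stood highest in probe set 1437797_at, at 9.76 and 9.84, where the other Balb/c arrays were at 7.50, 7.03 and 7.77 and C57BL/6 ran from 5.93 through 6.73 to 8.77. The difference was 1.39 ± 0.48 (SE, adjusted p = 0.0307), 0.45 ± 0.49 without the 2 arrays (adjusted p = 0.558) and 1.45 ± 0.63 with the block (adjusted p = 0.189). Probe set 1452363_a_at was lower, at 5.93, 5.40, 5.41, 5.31 and 6.85 in Balb/c, against 5.05 to 7.58 with a median of 6.99 in C57BL/6 (−1.03 ± 0.35, adjusted p = 0.0289, and 0.333 with the block). The remaining 3 did not pass, 1427250_at at −0.76 ± 0.41, 1427251_at at 0.26 ± 0.40 and 1443551_at at 0.62 ± 0.50. In 1443551_at the 10 short format C57BL/6 arrays averaged 4.62 and the 4 of the long format 6.49, and with the block its difference was −0.71 ± 0.48.

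Atp2b1, the most widespread plasma membrane calcium pump, had the largest difference of the 7 genes. It was at 7.69 and 6.68 in the Balb/c pools of 100, 8.24 in the pool of 200 and 5.92 and 7.36 in the pools of 400. In C57BL/6 it ran from 7.95 through a median of 9.43 to 10.86, and 1 array, 200-1 at 7.95, lay below the highest Balb/c array. Balb/c averaged 7.18 ± 0.90 and C57BL/6 9.49 ± 0.87 (SD, n = 5 and 14), a difference of −2.31 ± 0.42 (SE), 4.96-fold lower in Balb/c (limma adjusted p = 0.000631, exact permutation p = 0.000344). Relative to the median gene it was −2.53. With the number format as a block it was −1.80 ± 0.53 (adjusted p = 0.067), and without the 3 arrays between the strains −2.78 ± 0.40 (adjusted p = 2.57e-05).

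All 3 probe sets of Atp2b1 passed, 2 lower and 1 higher. Probe set 1428936_at was at 7.69 and 5.16 in the Balb/c pools of 100, 10.79 in the pool of 200 and 5.58 and 7.36 in the pools of 400, while 13 of the 14 C57BL/6 arrays lay between 11.52 and 13.78 and C57BL/6 200-1 at 7.95. The difference was −4.94 ± 0.75 (SE, adjusted p = 0.000154) and with the block −3.88 ± 0.92 (adjusted p = 0.0356). In probe set 1428937_at, Balb/c was at 6.71, 6.68, 7.81, 5.92 and 7.07 and C57BL/6 between 8.18 and 10.86, with no overlap. Its difference was −2.65 ± 0.41 (adjusted p = 0.000186), and with the block −2.14 ± 0.51 (adjusted p = 0.0366). These 2 and 1439036_a_at of Atp1b1 were the 3 pump probe sets that passed with the block.

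Probe set 1452969_at of Atp2b1 was higher in Balb/c, at 8.53, 10.90, 8.24, 9.02 and 8.12, with a lowest value of 6.14, a median of 7.20 and a highest of 8.54 in C57BL/6. Balb/c 100-2, which was lowest in 1428936_at, was highest here. The difference was 1.71 ± 0.42 (SE, adjusted p = 0.00482) and with the block 0.93 ± 0.49 (adjusted p = 0.273).

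Atp2b2, a fast calcium pump enriched in neurons, was at 6.49 and 6.62 in the Balb/c pools of 100, 6.67 in the pool of 200 and 6.76 and 7.50 in the pools of 400. Its values in C57BL/6 ran from 6.59 through a median of 7.50 to 8.13, so that Balb/c 100-1 lay under this range, 3 arrays low in it and 400-2 at its middle. Balb/c averaged 6.81 ± 0.40 and C57BL/6 7.41 ± 0.50 (SD, n = 5 and 14), a difference of −0.60 ± 0.26 (SE, 95% interval −1.14 to −0.05) that did not pass (limma adjusted p = 0.0844, exact permutation p = 0.0279). After quantile normalisation it was −0.77 and passed (adjusted p = 0.0282). Its 3 probe sets did not pass. The nearest was 1433888_at at −0.69 ± 0.27 (adjusted p = 0.0509), followed by 1420402_at at −0.68 ± 0.37 and 1420403_at at 0.06 ± 0.38.

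Atp2b3, a plasma membrane pump found mainly in brain, was at 5.69 and 5.91 in the Balb/c pools of 100, 6.88 in the pool of 200 and 6.11 and 5.24 in the pools of 400. In C57BL/6 it ran from 6.17 through a median of 7.71 to 8.65, with 1 array, 400-1 at 6.17, below the highest Balb/c array. Balb/c averaged 5.97 ± 0.60 and C57BL/6 7.64 ± 0.66 (SD, n = 5 and 14), a difference of −1.68 ± 0.33 (SE), 3.2-fold lower (limma adjusted p = 0.000929, exact permutation p = 0.000344). With the number format as a block it was −1.26 ± 0.40 (adjusted p = 0.0907). The gene lay below the median gene of its array in 4 of the 5 Balb/c and 1 of the 14 C57BL/6 arrays. The size of the difference can thus be bounded by background in Balb/c. Both of its probe sets passed in the same direction. Probe set 1445679_at was at 6.10, 6.31, 8.67, 6.69 and 5.31 in Balb/c, and at 7 to 10.37 with a median of 8.85 in C57BL/6 (−2.10 ± 0.47, adjusted p = 0.00252, and 0.112 with the block). Probe set 1442645_at lay within 5.09 to 5.54 in the 5 Balb/c arrays, against 5.15 to 7.72 with a median of 6.69 in C57BL/6 (−1.26 ± 0.35, adjusted p = 0.00894, and 0.287 with the block). In this one C57BL/6 200-1 and 400-1, at 5.15 and 5.34, lay with Balb/c.

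Atp2b4, a plasma membrane pump known from many tissues, was the only one of the Atp2b genes that was higher in Balb/c. Its 1 probe set, 1445701_at, was at 7.83 and 8.14 in the Balb/c pools of 100, 7.80 in the pool of 200 and 8.49 and 8.56 in the pools of 400. In C57BL/6 it ran from 5.34 through a median of 6.10 to 7.81, and only 200-1 at 7.81 reached the lowest Balb/c array. Balb/c averaged 8.16 ± 0.35 and C57BL/6 6.33 ± 0.81 (SD, n = 5 and 14), a difference of 1.83 ± 0.36 (SE), 3.56-fold higher (limma adjusted p = 0.000945, exact permutation p = 0.000344). With the block it was 1.17 ± 0.41 (adjusted p = 0.115). In 9 of the 14 C57BL/6 arrays the gene lay below the median gene of its array, and in 0 of the 5 Balb/c arrays, so the size of the difference can be bounded by background in C57BL/6.

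Across probe sets, 9 of 22 were lower in Balb/c, where 11.6% of all probe sets were lower, and 5 of 22 were higher, where 21.3% of all were. Atp1b1, Atp2a2 and Atp2b1 each had probe sets called in both directions, 3 of the 6 genes with more than 1 probe set. This was so for 9.93% of the 9010 genes with 2 or more probe sets. Within Atp1b1 the correlation of probe sets over the 19 arrays ran between −0.81 and 0.985, within Atp2b1 between −0.77 and 0.909 and within Atp2a2 between −0.67 and 0.654, given as a description of points that share strain and array. Which part of each transcript a probe set reads was not analysed here.

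**Figure D2:**
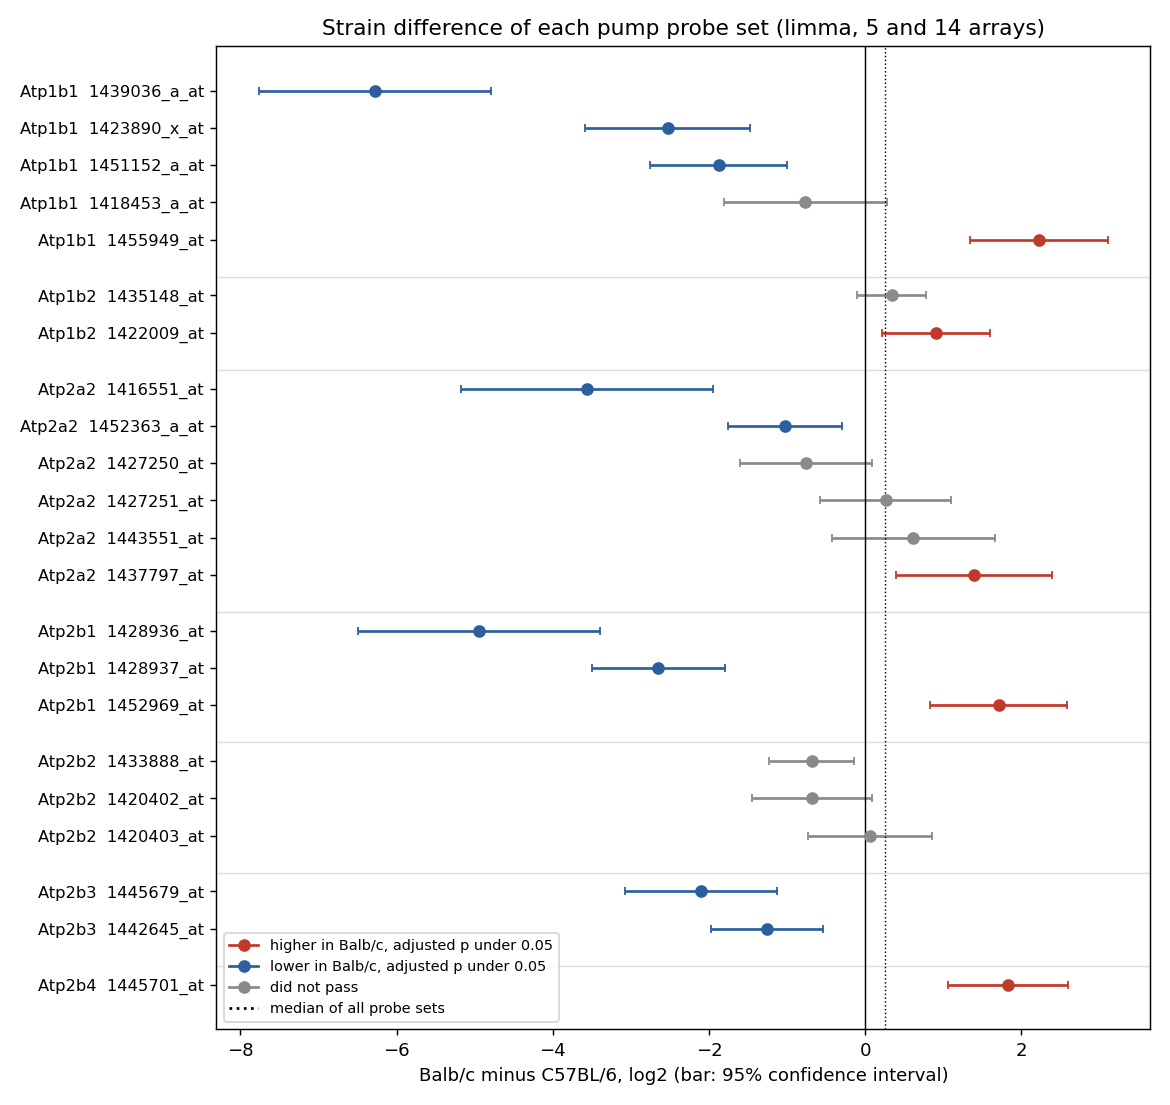
Balb/c minus C57BL/6 difference of each of the 22 pump probe sets on the log2 scale, with 95% confidence intervals, grouped by gene. Blue is lower in Balb/c and red higher at an adjusted p under 0.05, grey did not pass, and the dotted line is the median of all probe sets at 0.25. Atp1b1, Atp2a2 and Atp2b1 have points on both sides.

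**Figure D3:**
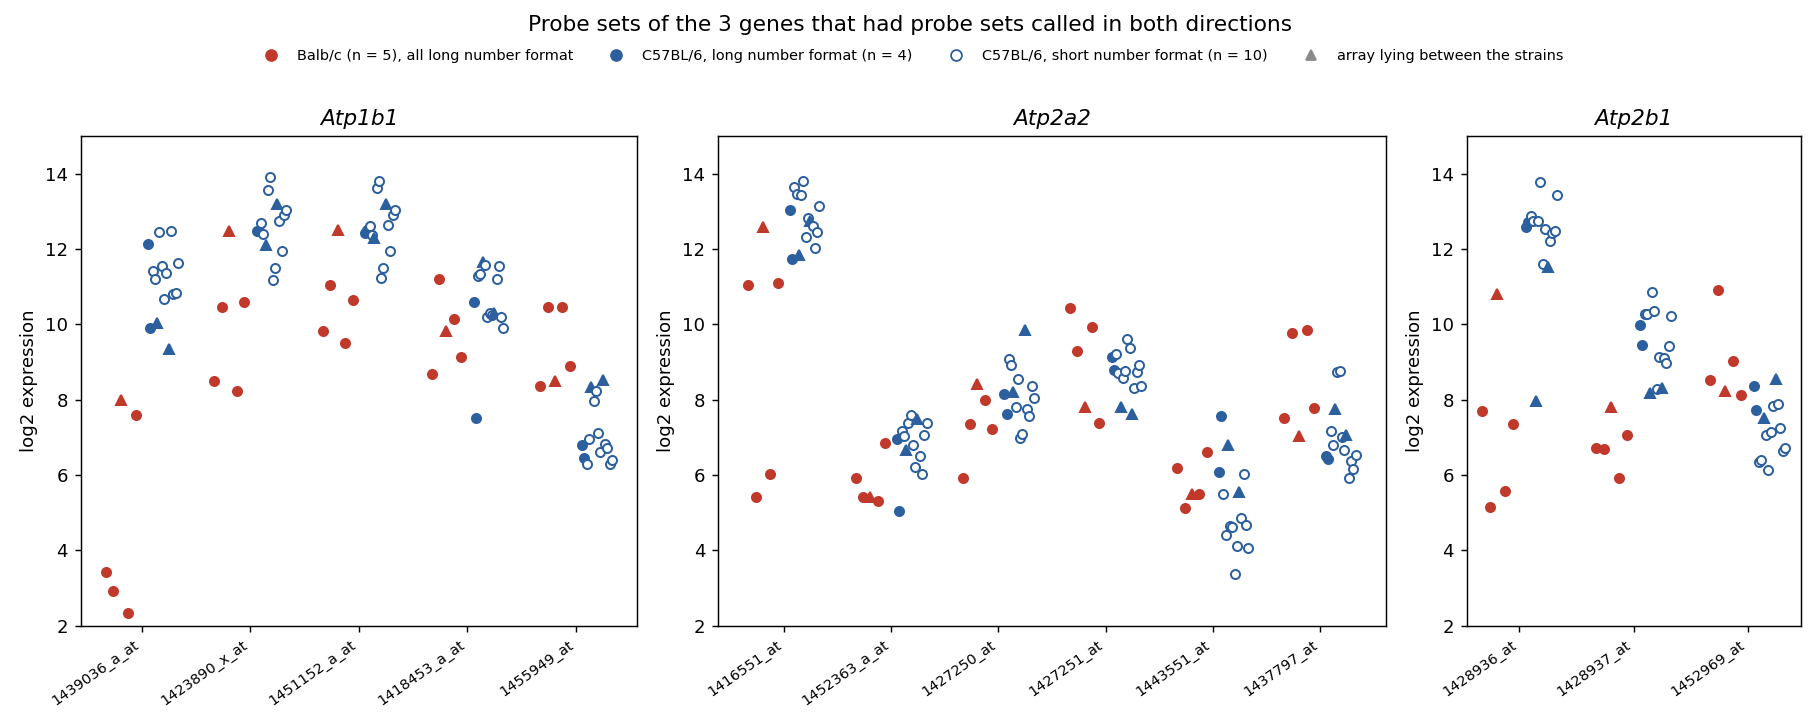
Log2 expression of the probe sets of Atp1b1, Atp2a2 and Atp2b1 in each array, Balb/c (red, n = 5) left of C57BL/6 (blue, n = 14) for each probe set, with symbols for number format and for the 3 arrays between the strains. Only 1439036_a_at and 1428937_at show no overlap, and 1416551_at has 2 Balb/c arrays at 5.40 and 6.02 and the other 3 at 11.04 or above.

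The genes of each array were also ranked, over all 18193, and the top 5% taken. The study instead took the median rank over replicates of genes with a rat ortholog, so both the genes and the ranks differ. It lists Atp1b1 in the top 5% in rat, Balb/c and C57BL/6 alike. Ranking removes differences in scale between arrays but still compares the brightness of unlike probes. Atp1b1 lay in the top 5% of genes in 1 of 5 Balb/c arrays and 13 of 14 C57BL/6 arrays. Atp1b2 did so in 5 of 5 Balb/c and 6 of 14 C57BL/6 arrays, Atp2b1 in 0 of 5 Balb/c and 5 of 14 C57BL/6 arrays, and the other 4 pump genes in no array. The median percentile of Atp2b1 was 62 in Balb/c (18.3 to 80.4) and 91.9 in C57BL/6 (75.5 to 97.2). That of Atp2b3 was 18.2 in Balb/c (7.45 to 51.2) and 73.5 in C57BL/6 (30.4 to 86.3), and that of Atp2b4 was 78.7 in Balb/c (73.2 to 84.1) and 28 in C57BL/6 (12.9 to 73.1).

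The number of dendrites in a pool had no detectable relation to any pump gene. The slope per doubling, with strain as a covariate, passed for 0 of the 7 genes and for 0% of all 18193 (850 had an unadjusted p under 0.05). The largest slope was that of Atp2b1, −0.33 ± 0.22 (SE, 95% interval −0.79 to 0.12, limma adjusted p = 0.959), which leaves room for a fall of over 1 log2 unit across the 2 doublings. In Balb/c Atp2b1 averaged 7.18 (n = 2) in pools of 100, 8.24 (n = 1) in the pool of 200 and 6.64 (n = 2) in pools of 400, and in C57BL/6 10 ± 0.39 (SD, n = 4), 9.32 ± 1.27 (n = 5) and 9.25 ± 0.62 (n = 5). Atp1b1 averaged 9.47, 9.82 and 9.32 in the same Balb/c pools and 11.19 ± 0.94, 11.54 ± 0.63 and 11.36 ± 0.83 in those of C57BL/6. In C57BL/6 these neighbours in the order of pool sizes differed by less than the larger SD of each pair. For Atp2b1 the step from pools of 100 to 200 exceeded the SD of 0.39 at 100. In Balb/c 1 or 2 arrays at each size gave no such comparison. Atp2b2 came nearest to a slope that differed between strains. In Balb/c it averaged 6.56, 6.67 and 7.13 over the pool sizes and in C57BL/6 7.86 ± 0.26, 7.34 ± 0.38 and 7.12 ± 0.57. The difference in slope was 0.65 ± 0.27 (SE), with an unadjusted limma p of 0.0279 and an adjusted p of 0.9999.

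**Figure D4:**
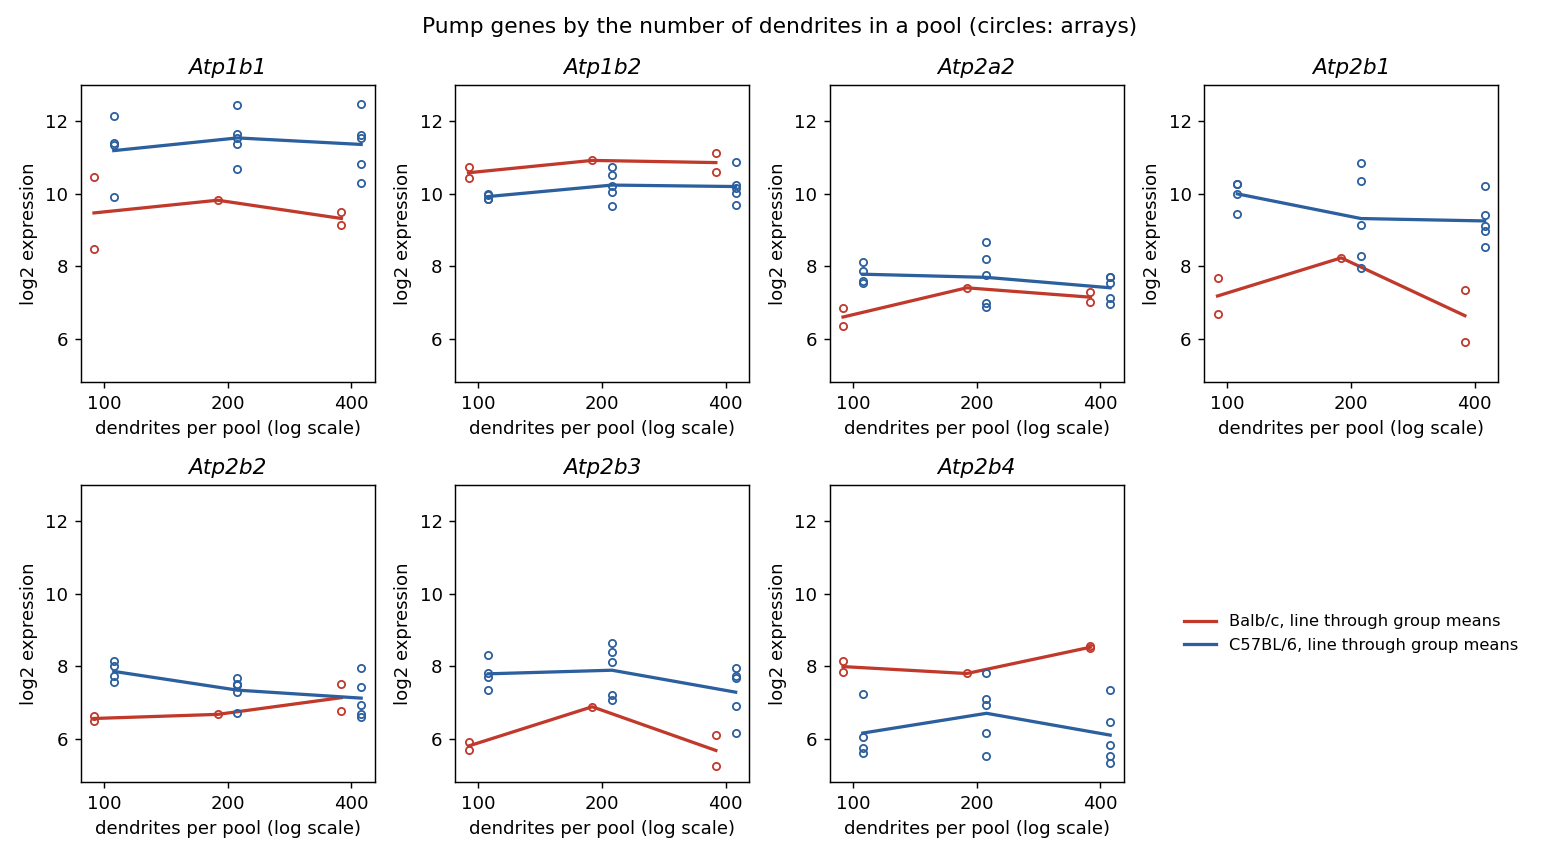
Log2 expression of the 7 pump genes against the number of dendrites per pool (log scale), with 1 circle per array and a line through the means of Balb/c (red) and C57BL/6 (blue). Pools of 200 dendrites hold 1 Balb/c array. No slope passed the test.

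Genes with the most similar pattern to a pump gene were found as those of highest Pearson r over the 19 arrays, after each array's median was subtracted. The arrays share the strain difference, so r within the 14 C57BL/6 arrays is given beside it, both as descriptions. For Atp1b1 they were Ociad2 (0.928, and 0.873 within C57BL/6), Epb41l1 (0.902 and 0.802) and Cadps (0.899 and 0.87), a gene of dense-core vesicle release. For Atp2b1 they were Prkcb (0.95 and 0.91), a calcium-dependent protein kinase C, Higd2a (0.948 and 0.911) and Tmed9 (0.948 and 0.873). Atp2b3 was most like Nr1h4 (0.909 and 0.794), Paip2 (0.899 and 0.612) and Gpd2 (0.899 and 0.704), Atp1b2 most like Edar (0.912 and 0.908), Fbxo16 (0.877 and 0.834) and Duoxa1 (0.871 and 0.781), and Atp2b4 most like Krtap17-1 (0.951 and 0.9), Plxna4 (0.943 and 0.924) and Cga (0.934 and 0.861). Between the pump genes, r over the 19 arrays ran from −0.83 for Atp2b3 and Atp2b4 to 0.786 for Atp2a2 and Atp2b1, and within C57BL/6 these were −0.623 and 0.683.

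The wider machinery of sodium and calcium transport was described by 10 lists of 89 genes, of which 76 were measured. Of these 10 were lower in Balb/c, where 11.4% of all genes were, 17 were higher, where 21.1% of all were, and 49 did not pass. Their median was 0.09 relative to the median gene. With the number format as a block 2 of the 76 passed, Nptn and Canx, where 1.92% of all genes did. No other related gene named here passed with the block. The sodium and calcium pump genes outside the 7 did not pass. For Atp1b3, a beta subunit, the difference was −0.24 ± 0.35 (SE), for Atp1a4 0.57 ± 0.30 and for Atp1b4 0.54 ± 0.40. For the SERCA genes Atp2a1 and Atp2a3 it was 0.66 ± 0.37 and 0.56 ± 0.31, and for Atp2c1, which fills the Golgi with calcium, 0.24 ± 0.28.

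Small membrane proteins tune the pumps. Of 7 FXYD genes, which modulate the sodium pump, 4 were higher (21.1% of all genes were) and 1 was lower (11.4% of all), and 0 passed with the block. Fxyd6, a form of the nervous system, averaged 7.17 ± 1.05 in Balb/c and 9.06 ± 0.99 in C57BL/6 (SD, n = 5 and 14), a difference of −1.88 ± 0.47 (SE, limma adjusted p = 0.00527), while Fxyd4 differed by 1.05 ± 0.28 (adjusted p = 0.00763) and Fxyd3 by 0.87 ± 0.28 (adjusted p = 0.0219). Fxyd3 averaged 6.13 in Balb/c and 5.26 in C57BL/6, and Fxyd4 6.26 in C57BL/6, below the lowest array median. Of 3 small inhibitors of SERCA, Mrln (1.16 ± 0.27, adjusted p = 0.00297) and Pln (1.17 ± 0.29, adjusted p = 0.0045) were higher and Sln did not pass (0.56 ± 0.34). With the block the adjusted p of Mrln and Pln were 0.175 and 0.13. Mrln and Pln averaged 6.05 and 6.13 in C57BL/6, below the lowest array median. Nptn, a partner subunit of the plasma membrane calcium pumps, was lower like Atp2b1 and Atp2b3, with means of 7.25 ± 0.34 in Balb/c and 8.92 ± 0.51 in C57BL/6 (SD, n = 5 and 14), a difference of −1.67 ± 0.26 (SE, adjusted p = 0.000209) that passed with the block (−1.09, adjusted p = 0.0471). Bsg, another partner, differed by −0.33 ± 0.46 and did not pass.

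Many sodium calcium exchangers clear calcium at lower affinity and higher rate than the pumps, driven at least in part by the sodium gradient. Of 8 listed exchangers measured, 3 were lower, where 11.4% of all genes were, and 0 higher, where 21.1% of all were. The list median was −0.82 relative to the median gene. Slc24a3 averaged 8.06 ± 1.53 in Balb/c and 10.45 ± 0.66 in C57BL/6 (SD, n = 5 and 14), a difference of −2.40 ± 0.45 (SE, adjusted p = 0.0007), Slc24a2 differed by −1.73 ± 0.44 (adjusted p = 0.0057) and Slc8a1, a sodium calcium exchanger of heart and brain, by −1.23 ± 0.35 (adjusted p = 0.0113). With the block their adjusted p were 0.0735, 0.279 and 0.423.

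The other lists held genes of both directions, where 11.4% of all genes were lower and 21.1% higher. Among 10 genes of calcium release and store-operated entry, Itpr3 (1.66 ± 0.35, SE) and Orai1 (0.75 ± 0.20) were higher and Ryr3, a ryanodine receptor, was lower (−1.09 ± 0.35). Among 6 genes of mitochondrial calcium uptake, Micu3 was lower (−0.93 ± 0.28) and Letm1 higher (1.12 ± 0.38), while Micu2 differed by 0.67 ± 0.26 and did not pass. Micu3 averaged 5.52 in Balb/c and 6.45 in C57BL/6, both below the lowest array median. Of 8 calcium buffers, the chaperone Canx was lower at −1.14 ± 0.25 (adjusted p = 0.00199, and 0.0435 with the block), and Pvalb (1.42 ± 0.42) and Casq2 (1.07 ± 0.31) were higher. Pvalb and Casq2 averaged 6.18 and 6.51 in C57BL/6, below the lowest array median. Of 25 other P-type ATPases and their subunits, 2 were lower (11.4% of all genes were) and 6 higher (21.1% of all), near those shares. Tmem30a, a subunit of lipid flippases, differed by −2.06 ± 0.41, its relative Tmem30b by 1.67 ± 0.32 and Atp12a, a proton potassium pump, by 1.32 ± 0.25 (adjusted p between 0.000781 and 0.0011). Tmem30b averaged 5.80 in Balb/c and 4.13 in C57BL/6, and Atp12a 6.21 and 4.89, all below the lowest array median. In Balb/c Tmem30a, at 6.125, was below it too.

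**Figure D5:**
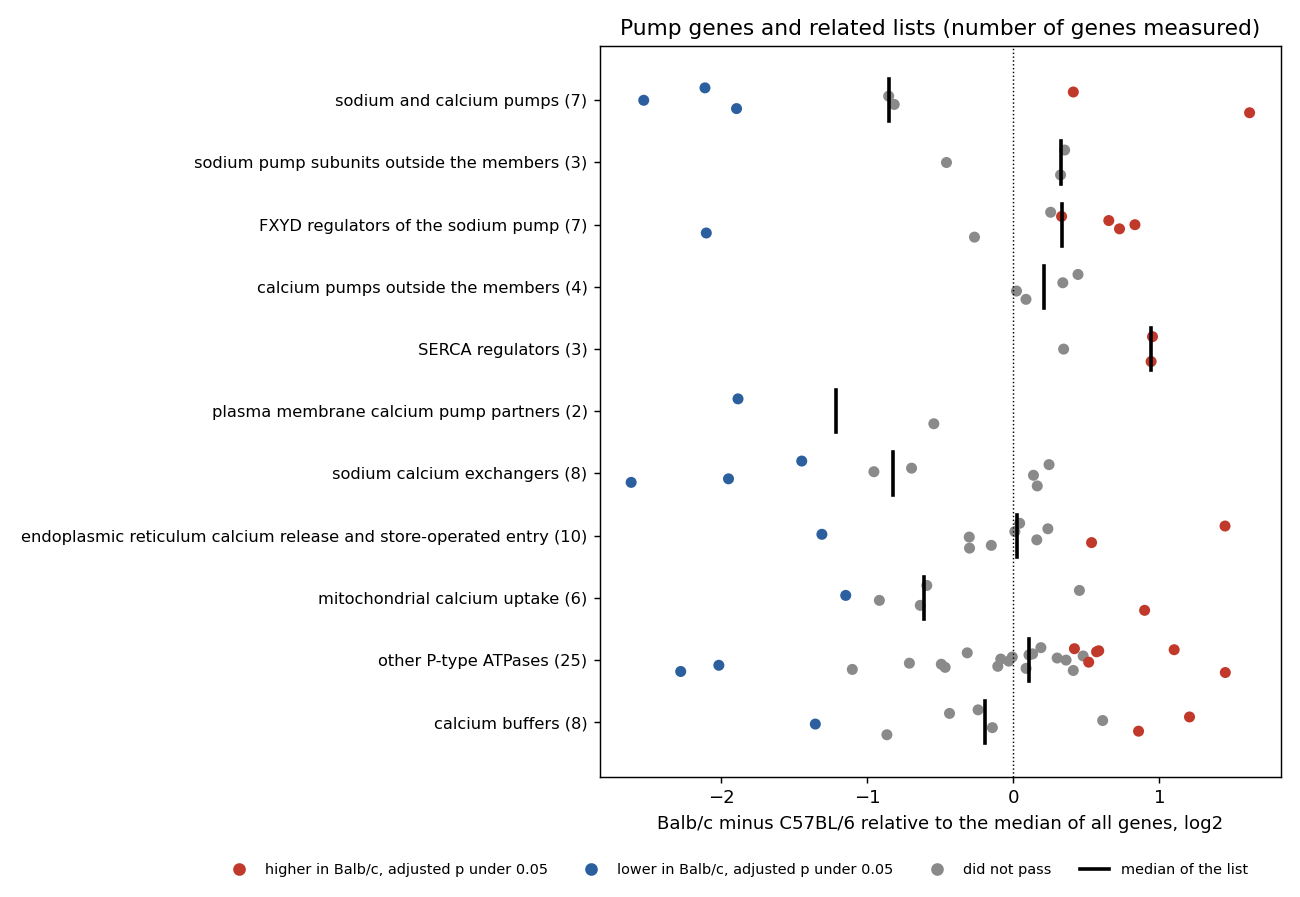
Balb/c minus C57BL/6 difference relative to the median of all genes (log2) for the 7 pump genes and for 10 related lists, 1 point per gene, with a black bar at the median of each list. Blue is lower in Balb/c and red higher at an adjusted p under 0.05, and grey did not pass. The pump genes have a median of −0.85, the exchangers of −0.82 and the SERCA regulators of 0.94.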

How the data were processed

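The deposited values were log2 expression per probe set of an Affymetrix mouse array, which the authors made with RMA (version 2.0) taking the upper decile over each set of probes. The median centring and range scaling that the methods also name were not in the values, since array medians and ranges differed. No 2 columns were copies (highest correlation 0.945).

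Gene values were medians over the probe sets that the platform annotation pairs with that symbol alone. Of 45101 probe sets, 64 controls were left out, 932 had several symbols and 9160 none. Strain was the only term of the limma 3.58.1 fit (lmFit, eBayes, R 4.3.3, all 19 arrays, no filter on level), as the methods name no covariate. Slopes on pool size had strain as a covariate. Single values were tested by exact two-sided permutation over 11628 choices of 5 of the 19 arrays (smallest p 0.000172, scipy 1.17.1). The number of arrays limits the precision. In simulated data of 18193 genes, 100 were changed by 1 log2 unit and 100 by 2, with the same spread in both strains. Between 5 and 14 arrays limma recovered 40% of the differences of 1 and 86% of those of 2. In the real data 2073 genes were lower and 3837 higher, so these rates may not hold there.

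The 7 genes, the related and marker lists and the tests were chosen with earlier results of these data known. By the naming rule the text names all 7 genes and their probe sets, up to 3 genes of each related list with the smallest p and the 3 most alike genes of Atp1b1, Atp2b1 and each called gene. Alternatives were quantile normalisation, centring and range scaling, a filter on level, other gene values, a variance per strain, pool size as a factor, the methods' t-test, number format and replicate blocks, and leaving out arrays.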

Additional observations from a re-analysis of the deposited data

Results flagged for a closer look

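In 4 of 116 groups of 4 to 10 arrays that were checked, 1 array stood apart from the rest of its group by Dixon's gap criterion, where chance alone gives about 5.8. Atp2b2 was at 7.5 in Balb/c 400-2, and the next Balb/c array at 6.76. Probe set 1455949_at of Atp1b1 was at 8.53 in C57BL/6 400-1, with 6.81 as the next of the C57BL/6 pools of 400. Probe set 1435148_at of Atp1b2 was at 12.8 in C57BL/6 400-1, with the next at 12.1. Probe set 1452363_a_at of Atp2a2 was at 5.05 in C57BL/6 100-2, with the next of the C57BL/6 pools of 100 at 6.95. C57BL/6 400-1 is one of the 3 arrays that lay between the strains.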

How the results depend on the processing

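Of the pump genes, 3 were lower and 2 higher in Balb/c. After quantile normalisation, and after centring and range scaling, 5 were lower and 2 higher. These scalings put the median of all genes at 0.08 and 0.04, against 0.22 as deposited. Over all genes 2522 and 2663 were lower and 2765 and 2600 higher after them, against 2073 and 3837 as deposited. With the probe set of the highest mean as the gene's value 5 were lower and 1 higher (2558 and 3740 over all genes). With a filter on mean level (which leaves out Atp2b4) 1 was higher, where 1733 of 9096 genes were. A variance per strain also left 1 higher, where 2725 of 18193 were. Without Balb/c 100-2 and 400-1 (chosen after seeing the data) 1 was higher, where 1115 of 18193 were. With the number format as a block 0 passed in either direction, where 1.92% of all genes did. Within the long format columns and with a replicate block 0 passed as well. Within the long format limma called 0 of all genes (2367 at an unadjusted p under 0.05) and with the replicate block 0 (3331), and their causes were not tested. Leaving out 1 array at a time gave 3 to 4 pump genes lower and 1 to 2 higher, the 1 without Balb/c 100-2, 200-1 or 400-1. Over all genes 2790, 4274 and 2529 were higher without these arrays.

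Of the pump probe sets 9 were lower and 5 higher. With the format block these were 3 and 0, within the long format and with the replicate block 0 and 0. With a variance per strain 3 were higher and without Balb/c 100-2 and 400-1 2 were higher. Over all probe sets the format block left 596 lower and 244 higher, and the long format and the replicate block left 0. With a variance per strain 6469 of all probe sets were higher, and without the 2 arrays 2685, against 9596 as deposited. Leaving out 1 array gave 8 to 10 pump probe sets lower and 3 to 5 higher, with 3 higher without Balb/c 100-2 or without 400-1. Of all probe sets 6952 and 6198 were higher without these arrays. Of the related genes 10 were lower and 17 higher. With the format block these were 2 and 0, within the long format and with the replicate block 0 and 0, and without Balb/c 100-2 and 400-1 5 and 6. Over all genes the format block left 232 lower and 118 higher, and leaving out those 2 arrays 947 and 1115. After centring and range scaling 11 related genes were higher, with a variance per strain 11 and with the filter on level 8. Over all genes 2600, 2725 and 1733 were higher in these settings, the last of 9096 genes. Leaving out 1 array gave 9 to 11 related genes lower and 10 to 19 higher, the 10 without Balb/c 400-1, where 2529 of all genes were higher. Arrays with the same pool size and number did not deviate together (r between −0.189 and 0.071), so the numbers do not pair the samples.

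Of the called results, Atp1b1 turned to 2.23 without _s_at, _x_at and _a_at probe sets. The other turns were of values that did not pass before or after. Probe set 1420403_at turned to −0.10 after quantile normalisation, −0.11 after range scaling, −0.10 with the format block and within the long format, −0.056 without Balb/c 100-2 and 400-1 and −0.054 to 0.18 without single arrays. Probe set 1427251_at turned to −0.17 without those 2 arrays and ran from −0.10 to 0.66 without single arrays, and 1443551_at turned to −0.71 with the format block and within the long format and to −0.39 with the replicate block. The slope of Atp1b1 turned to −0.029 with the format block and −0.16 within the long format and ran from −0.12 to 0.13 without single arrays. That of Atp1b2 turned to −0.033 with the probe set of the highest mean, and that of Atp2a2 to 0.17 within the long format (−0.12 to 0.0043 without single arrays). That of Atp2b4 turned to −0.057 in the methods' t-test and for 400 against 100 dendrites, −0.033 without the 3 arrays between the strains and −0.051 within C57BL/6 (−0.033 to 0.14 without single arrays). How far signals lay over background was not analysed, which limits values near or below the array median more than bright ones.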
